A study of Oryctolagus cuniculus with 8 samples.

Results

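PTGDS, SLC6A13, DNAI1 and KL are 4 genes known from the linings of the brain and its fluid spaces, and they were followed through every forebrain sample of the series to see whether they rise and fall together. Their probes were taken from the array by gene symbol or full gene name. This gave 12 of the 43603 probes, and 4 genes of the 23410 genes or transcripts that the probes represent. One of the 12 probes turned out to carry another gene, as described with its sequence. The 4 genes had been picked with their difference between dexamethasone and saline already known, so that difference is given as a description with no test. What was tested is how they vary together inside the groups.

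The samples came from New Zealand rabbit pups delivered by Caesarean section at day 29 of gestation, where term is 32 days, and killed at postnatal day 14. The control group received saline. The treated group received dexamethasone, a synthetic glucocorticoid, by intramuscular injection at 0.25 mg/kg, 2 times a day, for no more than 5 days. Each group held 4 samples, called biological replicates in the design text, without a statement of how many pups went into each. All pups of both groups were preterm and reared by gavage. Pairs of samples of the same group shared an array: samples 1 and 3 of each group were labelled with Cy3, samples 2 and 4 with Cy5. All saline arrays were on 1 slide and all dexamethasone arrays on another, so slide and treatment cannot be told apart.

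The choroid plexus is a folded epithelium in the ventricles that secretes cerebrospinal fluid and exports the thyroid hormone carrier transthyretin. The ventricle walls are lined by ependymal cells whose motile cilia stir that fluid, and the brain surface is wrapped in the leptomeninges, thin membranes rich in fibroblasts. A forebrain block holds some of each, in an amount that depends on how much lining comes away with it. In such bulk tissue, fewer cells of a type and less RNA per cell cannot be told apart. PTGDS encodes lipocalin-type prostaglandin D synthase, a secreted enzyme and carrier made in the leptomeninges, choroid plexus and oligodendrocytes. SLC6A13 encodes GAT2, a GABA and taurine transporter of leptomeningeal cells. DNAI1 encodes an intermediate chain of the outer dynein arm that drives motile cilia. KL encodes klotho, a membrane protein of the choroid plexus and kidney that acts as co-receptor for the hormone FGF23.

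The probe sequences matter here because the KL and DNAI1 readings differ from probe to probe. Each is 60 bases long, written 5′ to 3′ as in the scanner files, whose genome build is oryCun2. The 4 probes listed as klotho-like come from 1 transcript of the gene that RefSeq (assembly mOryCun1.1) names KL, with no genome position in the files. Capitals mark the bases that a probe shares with a neighbouring one.
A_04_P097412: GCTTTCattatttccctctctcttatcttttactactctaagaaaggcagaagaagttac
A_04_P097413: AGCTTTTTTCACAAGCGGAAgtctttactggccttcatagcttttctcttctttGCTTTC
A_04_P097414: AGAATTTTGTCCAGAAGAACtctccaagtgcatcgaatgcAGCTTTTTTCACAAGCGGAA
A_04_P097415: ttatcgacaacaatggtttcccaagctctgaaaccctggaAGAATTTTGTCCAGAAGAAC
They tile the transcript from its base 2830 (A_04_P097415) to the probe that starts at base 2964 (A_04_P097412). Only A_04_P097412 was well above background, in 8 of 8 samples. The other 3 were well above background in 0 of 8 samples, although they lie directly beside it on the same transcript. Every KL value here therefore rests on a single probe of 4.

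Another probe is listed by the array as klotho (KL), but the accession it carries belongs in RefSeq to KITLG, the ligand of the receptor KIT. It maps to chr4:67504497-67505178 on the minus strand of oryCun2, a stretch of 682 bases and so wider than the probe. It is printed to show how little it shares with the klotho probes.
A_04_P001836: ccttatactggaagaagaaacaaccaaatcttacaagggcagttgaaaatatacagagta
The longest run of bases that it has in common with any of the 4 klotho probes is 9. It is reported as KITLG and kept apart from KL.

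The 5 DNAI1 probes are nearly the same sequence, moved along by single bases. They map to chr1 on the minus strand of oryCun2, and 3 of them are shown because neighbours that differ by 1 base gave unequal differences. Capitals mark the 56 bases present in all 5.
A_04_P072447: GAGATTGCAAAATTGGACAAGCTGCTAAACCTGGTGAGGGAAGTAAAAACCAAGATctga
A_04_P072448: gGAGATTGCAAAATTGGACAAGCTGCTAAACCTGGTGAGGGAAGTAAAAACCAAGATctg
A_04_P072449: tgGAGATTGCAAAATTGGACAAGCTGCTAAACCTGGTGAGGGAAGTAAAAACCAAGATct
A_04_P072449, at chr1:19301454-19301513, had the highest mean of the 5 and stands for DNAI1. SLC6A13 has 1 probe, A_04_P050072, at chr8:37468746-37469371 on the plus strand, a span of 626 bases that is again wider than the probe.
A_04_P050072: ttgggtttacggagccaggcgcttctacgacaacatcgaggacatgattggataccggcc
PTGDS also has 1 probe, A_04_P000611, with no genome position in the files.

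All levels are normalized log2 intensities, on which 1 unit is a doubling, and levels of different probes are not set against each other. PTGDS varied most of the 4 members. In saline its level was 13.26 in sample 1, 15.86 in sample 2, 15.41 in sample 3 and 15.69 in sample 4. With dexamethasone it was 16.50, 15.63, 17.10 and 15.78 in samples 1 to 4. Saline 1 lay far below the other 7 samples, dexamethasone 3 and 1 lay above them, and the groups overlapped. The highest sample stood 14.3-fold above the lowest. The dexamethasone mean was 16.25 ± 0.68 (SD, n = 4) and the saline mean 15.06 ± 1.21 (SD, n = 4), a difference of 1.20 with a standard error of 0.74, or 2.29-fold. The PTGDS difference was 2.47 between the Cy3 samples and -0.07 between the Cy5 samples. Each group held 2 samples of each dye, so a dye term in the fit could not change the difference of 1.20. Its staying the same therefore says nothing about the unequal differences of the 2 dyes. Without saline 1 it was 0.52, and without dexamethasone 3 it was 0.79.

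SLC6A13 put the samples in a similar order. Its saline levels were 7.47, 8.22, 7.85 and 7.85, and its dexamethasone levels 8.65, 8.07, 9.29 and 8.31. Saline 1 was again lowest and dexamethasone 3 and 1 again highest, with saline 2 above dexamethasone 2, so that the groups overlapped. The probe was well above background in 2 of 4 saline samples, not in saline 1 and 3, and in 4 of 4 dexamethasone samples. The means were 7.85 ± 0.31 in saline and 8.58 ± 0.53 with dexamethasone (SD, n = 4 each), a difference of 0.74 with a standard error of 0.33. The difference was 1.31 between the Cy3 samples and 0.16 between the Cy5 samples, and 0.49 without dexamethasone 3.

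DNAI1 followed another order. Its saline levels were 8.05, 8.42, 8.62 and 9.08, and its dexamethasone levels 9.40, 9.12, 8.95 and 9.35. Saline 1 was lowest here too, but dexamethasone 3 was the lowest of its group, under saline 4. The means were 8.55 ± 0.43 in saline and 9.20 ± 0.21 with dexamethasone (SD, n = 4 each), a difference of 0.66 with a standard error of 0.23. All 5 overlapping probes gave a higher dexamethasone mean, by 0.21 (A_04_P072447 and A_04_P072450) to 1.04 (A_04_P072448). The size of the DNAI1 difference thus varied about as much between probes that share nearly all their bases as the difference itself. For A_04_P072448, 1 saline value was missing and 2 saline samples were not well above background.

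KL was the only 1 of the 4 with a lower dexamethasone mean. Its saline levels were 11.99, 11.90, 12.35 and 12.49, and its dexamethasone levels 11.42, 11.70, 11.80 and 11.76. Each dexamethasone sample was below each saline sample, dexamethasone 1 being lowest. The means were 12.18 ± 0.28 in saline and 11.67 ± 0.17 with dexamethasone (SD, n = 4 each), a difference of -0.51 with a standard error of 0.18, or 1.43-fold lower with dexamethasone. The difference was -0.56 between the Cy3 samples and -0.47 between the Cy5 samples. Of all 10794 genes or transcripts tested, 8.3% had groups that did not overlap and were lower with dexamethasone, 5.89% did so and were higher, and 14.2% did either way; since KL was chosen on this contrast, nothing is read from its place among them.

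The KITLG probe had saline levels of 7.02, 7.99, 8.06 and 8.06 and dexamethasone levels of 8.45, 7.61, 7.09 and 8.48. Saline 1 and dexamethasone 3 were lowest and not well above background. The means of KITLG were 7.78 ± 0.51 and 7.91 ± 0.68 (SD, n = 4 each), a difference of 0.13 that lay within the spread of either group.

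**Figure D1:**
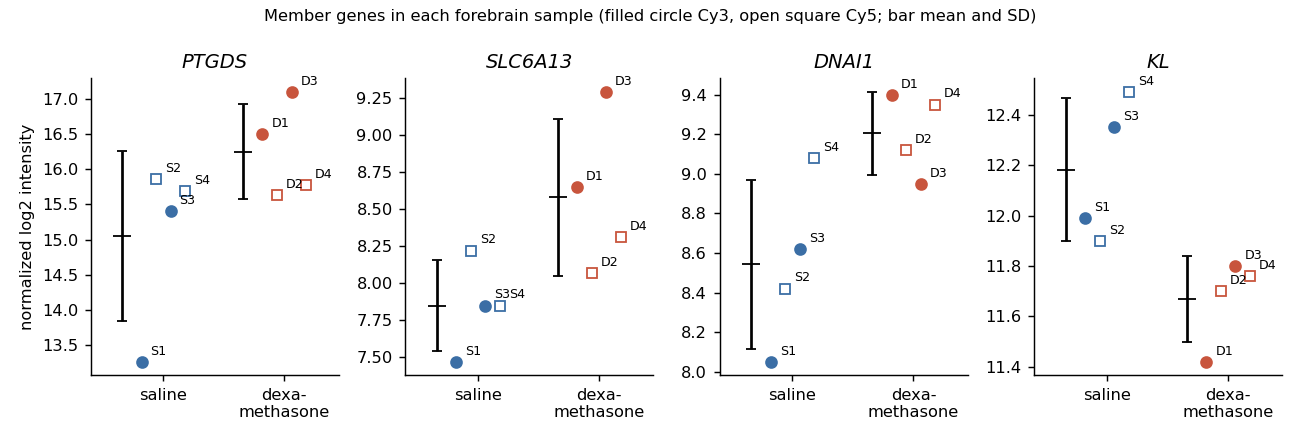
Normalized log2 intensity (vertical axes, each with its own range) of PTGDS, SLC6A13, DNAI1 and KL in saline samples S1 to S4 and dexamethasone samples D1 to D4, filled circles in Cy3 and open squares in Cy5, with group mean and SD as bars (n = 4). S1 is the lowest sample in the first 3 panels, D3 and D1 are the highest for PTGDS and SLC6A13, and only for KL do the groups not overlap.

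**Figure D2:**
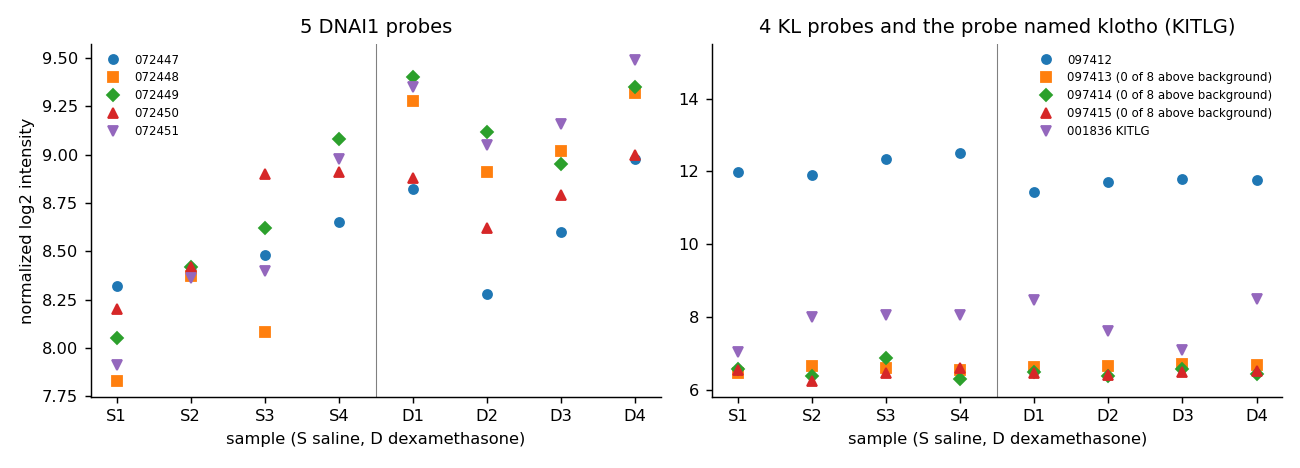
Normalized log2 intensity of the 5 DNAI1 probes (left) and of the 4 KL probes with the probe named klotho that belongs to KITLG (right), in each of the 8 samples; points are single samples, and a missing point is a spot left out as an outlier. On the right, A_04_P097412 lies between 11.42 and 12.49, and the other 3 KL probes lie at 6.23 to 6.86 and were well above background in no sample.

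The spread inside the groups set the members apart from each other. The within-group SD, pooled over both groups, was 0.98 for PTGDS, 0.43 for SLC6A13, 0.34 for DNAI1 and 0.23 for KL. Over the 9789 genes with all 8 values the median was 0.22. For PTGDS, 1.29% of those genes had a larger SD. The share was 10.5% for SLC6A13, 20% for DNAI1 and 45.9% for KL, which varied like a typical gene.

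Whether the members moved together was tested inside the groups. Each gene's group mean was subtracted, so that the dexamethasone difference by which the genes were picked plays no part, and the values were correlated over the 8 samples with a 2-sided exact permutation within groups (576 arrangements). Adjustment was over the 6 pairs (Benjamini-Hochberg). The permutation treats the 4 samples of a group as exchangeable. They sat 2 to an array, 1 in each dye, so they are not fully independent and the p-values do not allow for that. PTGDS and SLC6A13 varied together, with Pearson's r = 0.80 (exact p = 0.00347, adjusted 0.0208) and Spearman's rho = 0.88 (exact p = 0.00694, adjusted 0.0417). Without the 2 samples farthest from the PTGDS median, saline 1 and dexamethasone 3, r was 0.90. With the values centred on group and dye, it was 0.87. Saline 2, dexamethasone 1 and dexamethasone 3 lay above their group means for both genes, and saline 1, dexamethasone 2 and dexamethasone 4 lay below for both. Leaving out 1 sample at a time kept r between 0.77 and 0.96. The adjusted exact permutation p was 0.0417 without saline 3 or saline 4. It was 0.0833 to 0.167 without any of the other 6 samples, so the call was lost in those fits. With the 144 arrangements left, 0.0417 is the smallest adjusted p that a single pair can reach. Losing the call therefore does not show that the correlation depends on the sample left out. On the values of the authors' deposited series table r was 0.30 and the adjusted exact permutation p 0.962, so the call was lost there.

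No other pair passed the test. PTGDS and DNAI1 had r = 0.49 and rho = 0.07 (exact p = 0.411, adjusted 0.823), and r turned to -0.28 without saline 1. KL and DNAI1 had r = 0.50 and rho = 0.36 (exact p = 0.354, adjusted 0.823), and -0.63 without saline 4 and 3. PTGDS and KL had r = 0.26 and rho = 0.24 (exact p = 0.762, adjusted 0.988), and -0.67 without saline 1 and dexamethasone 3. SLC6A13 had r = 0.00 with KL (rho = -0.07, exact p = 0.988) and r = -0.02 with DNAI1 (rho = -0.05, exact p = 0.938), both 0.988 after adjustment. Without dexamethasone 3 and saline 1 these 2 values were -0.84 and -0.12. With 8 samples a moderate correlation cannot be told from 0, so these 5 pairs are not shown to vary apart.

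**Figure D3:**
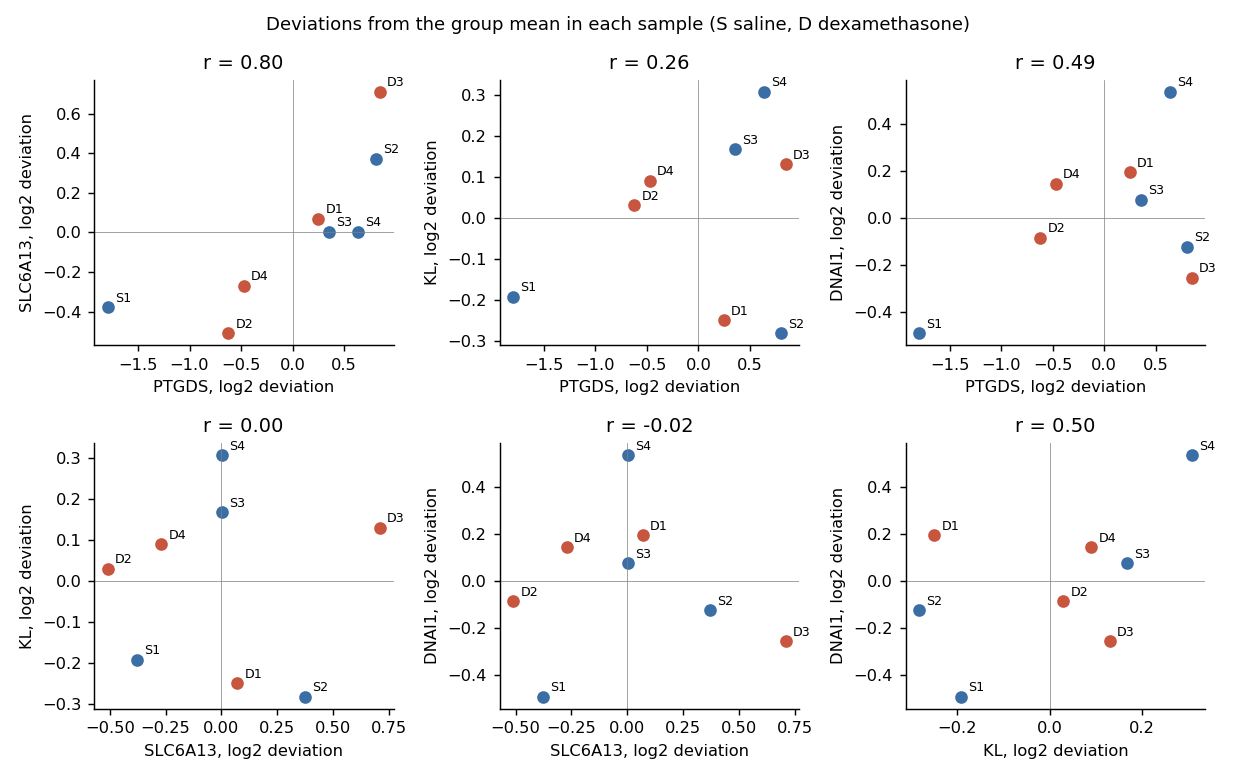
Deviation from the group mean (log2) of 1 member against another for the 6 pairs, with 1 point per sample (S saline, D dexamethasone). The PTGDS and SLC6A13 panel rises from S1, D2 and D4 to D3 and S2 (r = 0.80), while the panels of SLC6A13 with KL and with DNAI1 show no slope (r = 0.00 and -0.02).

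By the values as they stand, with the group difference left in, each member was most like the following genes with a symbol over the 8 samples, among 9788 genes. PTGDS was most like MAPKAP1 (r = 0.977), RARRES1 (r = 0.961) and GSN, which encodes the actin-severing protein gelsolin (r = 0.940). SLC6A13 was most like PHKG1 (r = 0.952), FOXF1 (r = 0.950) and THNSL1 (r = 0.949). KL was most like HMGXB3 (r = 0.974), TENT2 (r = 0.971) and CARF (r = 0.966). DNAI1 was most like TF, the iron carrier transferrin (r = 0.978), ATOSA (r = 0.975) and RFTN2 (r = 0.971). With 8 samples and this many genes, coefficients of this size are found for every member, and they are a description. SLC6A13 stood at rank 40 in the order for PTGDS, with r = 0.871, and PTGDS at rank 29 in the order for SLC6A13. KL correlated below 0 with the other members on this scale, at -0.321 with PTGDS, -0.548 with SLC6A13 and -0.383 with DNAI1.

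The markers of the choroid plexus epithelium showed how unevenly that tissue's transcripts were spread over the samples. Transthyretin, TTR, has 5 probes, of which A_04_P040273 was measured in all samples. It read 16.45, 15.49, 16.59 and 17.22 in saline and 18.27, 15.47, 13.94 and 18.18 with dexamethasone. The 4 dexamethasone samples held both the highest and the lowest TTR of the series, 20.1-fold apart, and the group means of 16.44 ± 0.71 and 16.47 ± 2.13 (SD, n = 4 each) differed by 0.03. The remaining 4 TTR probes ranged over 16.7-fold to 19.9-fold, with dexamethasone 3 lowest on each. TTR did not enter the test, because its brightest probe lacked 2 saline values.

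Some other choroid plexus genes, KCNJ13, FOLR1 and OTX2 among them, split the dexamethasone samples the same way. KCNJ13, an inward rectifier potassium channel of the apical membrane, read 9.37 and 10.13 in dexamethasone 1 and 4 but 7.75 and 8.30 in dexamethasone 2 and 3. FOLR1, the folate receptor that carries folate into the fluid, read 10.33 and 10.82 against 8.69 and 8.56. OTX2, a homeobox factor of the choroid plexus, read 9.05 and 9.96 against 6.93 and 7.67. In saline, KCNJ13 was 8.58 and 8.60 in samples 3 and 4 and 7.39 and 7.41 in samples 1 and 2. Saline 1 and 2 shared 1 array and saline 3 and 4 another, so this split and array cannot be told apart. Dexamethasone 1 and 4 were on different arrays. Others did not show it. TMEM72 read 12.11 and 11.99 in dexamethasone 1 and 4 against 12.16 and 12.35 in dexamethasone 2 and 3, PRLR, the prolactin receptor, read 8.31 and 8.48 against 8.60 and 8.58, and SOSTDC1 and STEAP1 were highest in dexamethasone 3 and 2. KL did not show it either: its dexamethasone 1 and 4 samples, at 11.42 and 11.76, included the lowest of the series, and its dexamethasone 3 sample was the highest of its group. ENPP2, the secreted lipase autotaxin, also read highest in dexamethasone 4, at 12.88 and 12.42 on its 2 probes.

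Over the choroid plexus list, 32 of 43 genes had a probe and 17 were tested, including KL. Of the 15 not tested, 11 failed the filter on dim probes, and CLIC6, SLC4A5 and LMX1A were well above background in 0 of 8 samples. The linear intensities of the 16 genes with all 8 values summed to 19500 to 24600 in the saline samples and to 19600 to 32000 in the dexamethasone samples. Leaving KL out, the sums were 15700 to 19200 and 16300 to 28500, and 10 of 15 genes had their highest value in dexamethasone 4. Of all 9789 genes, 11.5% did.

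The genes of motile cilia and ependyma, in whose list DNAI1 belongs, were also highest in dexamethasone 4, in 14 of 21 genes other than DNAI1. The mean deviation of these 21 genes was 0.52 in dexamethasone 4, 0.22 in dexamethasone 1, -0.17 in dexamethasone 2 and -0.14 in dexamethasone 3. In saline it was -0.35, -0.15, -0.10 and 0.16 in samples 1 to 4. DNAI1 itself was high in dexamethasone 1 and 4 and low in saline 1, as these genes were on average. Its highest value was in dexamethasone 1, at 9.40, with 9.35 in dexamethasone 4. It departed from these genes in dexamethasone 2 and 3, with 9.12 and 8.95 against 8.42 and 8.62 in saline 2 and 3. The mean deviations of these genes were similar in those samples. CAPS, a calcium-binding protein of ciliated cells, read 12.92 in dexamethasone 4 and 10.54 in saline 1. VWA3A ran the other way, with 10.79 in saline 1. The summed intensity of the 22 genes with all 8 values was 11400 to 17600 in saline and 12700 to 26600 with dexamethasone. Without DNAI1 it was 11100 to 17000 in saline and 12100 to 26000 with dexamethasone.

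Several leptomeningeal and fibroblast genes peaked in other samples. DCN, the matrix proteoglycan decorin, read 11.41 and 11.67 in dexamethasone 1 and 3 and 9.44 and 10.35 in dexamethasone 2 and 4. Dexamethasone 1 and 3 were the Cy3 samples and 2 and 4 the Cy5 samples, so this split and dye cannot be told apart. In saline DCN read 9.65 in sample 1, 9.52 in sample 3 and 10.42 in sample 4, with sample 2 highest, as for SLC6A13 and PTGDS. CRABP2, which binds retinoic acid in the cell, was likewise highest in dexamethasone 3 at 9.34 and, within saline, in sample 2 at 9.14. Of 21 such genes other than PTGDS and SLC6A13, 7 were highest in dexamethasone 3, against 11% of all genes, 4 in saline 3, against 20.9%, and 3 each in saline 2 and dexamethasone 1. Others did not follow. SLC13A3, a dicarboxylate transporter, read 8.55 in dexamethasone 3 and 9.72 in saline 3. LUM had its lowest value of the series in dexamethasone 3, at 7.86. IGFBP6 and EFEMP1 were highest in dexamethasone 4, at 11.27 and 8.35. The mean deviation of these 21 genes was -0.31, 0.19, 0.02 and 0.04 in saline samples 1 to 4 and 0.11, -0.28, 0.17 and 0.06 in dexamethasone samples 1 to 4. Their summed intensity was 14700 to 21500 in saline and 15400 to 23700 with dexamethasone, so the groups overlapped. With PTGDS and SLC6A13 added, the sum was 24700 to 81100 and 66400 to 163000. Most of the addition came from PTGDS. Both genes were picked with their group difference known, so nothing is read from the larger sum. How far the amount of lining tissue in each sample enters the differences of the 4 members was not tested.

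**Figure D4:**
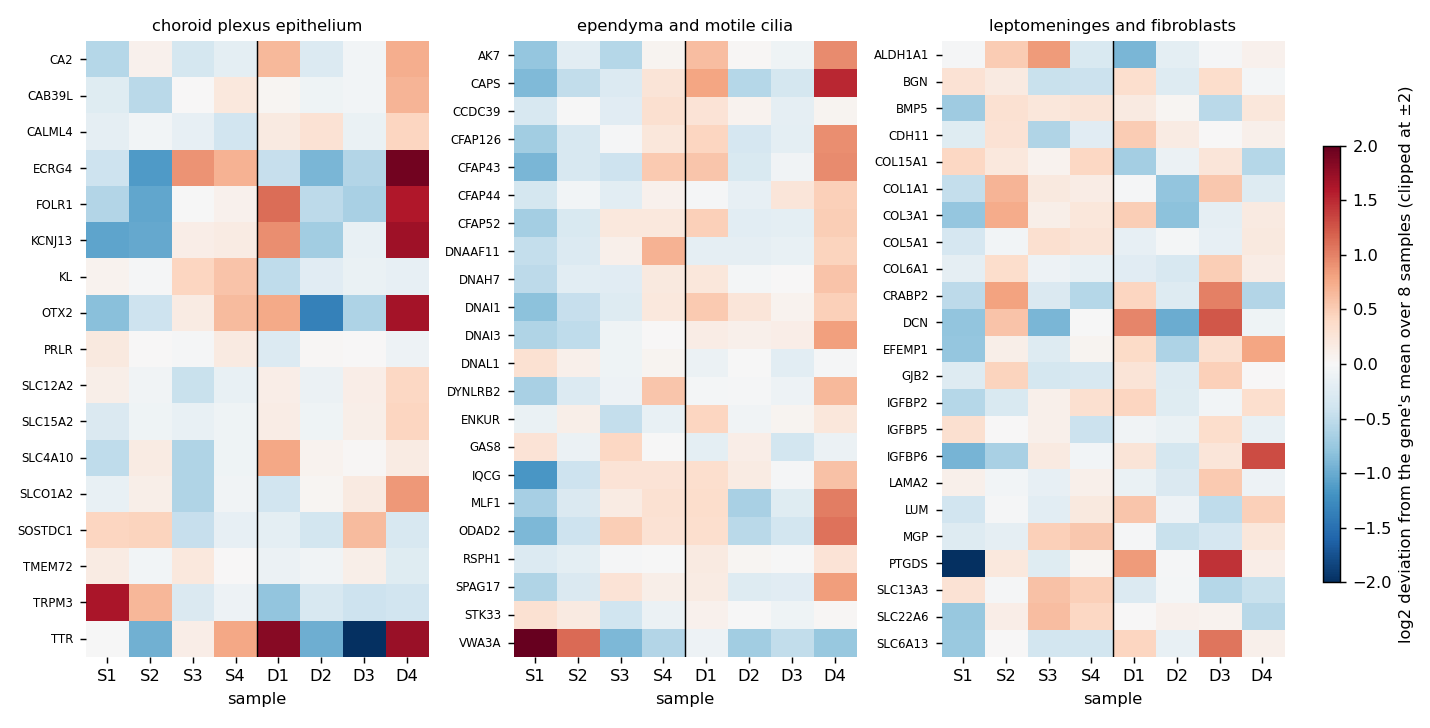
Log2 deviation of each gene from its mean over the 8 samples (red above, blue below, clipped at ±2) for the measured genes of the choroid plexus, motile cilia and leptomeningeal lists, with TTR shown by A_04_P040273. D1 and D4 are red in the rows of TTR, FOLR1, KCNJ13 and OTX2, whereas D1 and D3 are red in the rows of PTGDS, SLC6A13 and DCN. D1 and D3 are the Cy3 samples of their group. The KL row is blue in all 4 dexamethasone columns.

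Between the groups, limma fitted over the whole array called 7 of 10794 genes or transcripts (0.0649%), with an adjusted p under 0.05, 4 of them higher (0.0371%) and 3 lower (0.0278%) with dexamethasone. Leaving out 1 sample changed this to 12 (saline 2), 3 (dexamethasone 1) or 1 (saline 4, dexamethasone 2 or dexamethasone 3). At an unadjusted p under 0.05 it was 14% of all, and 53.4% had a difference above 0, with a median of 0.02. None of the called genes was in the lists described here. Of the 16 choroid plexus genes tested besides KL, limma called 0, and 1 had an unadjusted p under 0.05; 11 had a difference above 0, and the median of the 16 was 0.29. With KL included the list median was 0.28, which turned to -0.04 on the scanner's processed signals, where the median of all genes was -0.31. STEAP1, a metalloreductase, had the smallest p, with a difference of 0.52 and a standard error of 0.13 (limma, adjusted p = 0.300); it lacked 1 saline value. KCNJ13 differed by 0.89 with a standard error of 0.65, FOLR1 by 0.77 with 0.68, OTX2 by 0.23 with 0.79 and CALML4 by 0.39 with 0.17.

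Of the 22 cilia genes tested besides DNAI1, limma called 0 and 2 had an unadjusted p under 0.05; 18 had a difference above 0, and the median was 0.26. AK7, an adenylate kinase of cilia, differed by 0.75 with a standard error of 0.30, and DNAI3 by 0.60 with 0.23 (limma, adjusted p = 0.343 for both). The radial spoke gene RSPH1 differed by 0.24 with a standard error of 0.14, and SPAG6, of the central pair, by 0.25 with 0.21. Of the 25 leptomeningeal and fibroblast genes tested besides PTGDS and SLC6A13, limma called 0 and 1 had an unadjusted p under 0.05; 14 had a difference above 0, and the median was 0.01. SLC13A3 had the smallest p there, with a difference of -0.67 and a standard error of 0.20 (limma, adjusted p = 0.316). DCN differed by 0.57 with a standard error of 0.67, LUM by 0.21 with 0.30 and IGFBP2 by 0.23 with 0.27. COL15A1 differed by -0.55 with 0.27, COL1A1 by -0.27 with 0.40, COL1A2 by -0.62 with 0.61 and COL3A1 by -0.16 with 0.47. The 9 other kept probes of COL1A2 gave -1.04 to 0.83, so its direction depended on the probe. Other kept probes gave 0 to 0.37 for DCN and -0.18 to 0.35 for LUM. They gave -0.61 to -0.39 for COL15A1 and -0.34 to -0.09 for COL3A1.

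The pathways in which the members act gave no call either. PTGDS makes prostaglandin D2 from the product of the cyclooxygenases PTGS1 and PTGS2. Of 8 other genes tested of that pathway, limma called 0, 1 had an unadjusted p under 0.05, and 4 had a difference above 0. PTGS2 differed by -0.94 with a standard error of 0.44 and PTGS1 by -0.20 with 0.21. The prostaglandin E2 receptor PTGER4 differed by 1.16 with a standard error of 0.39 (limma, adjusted p = 0.329), while its other 2 kept probes gave 0.06 and 0.26. HPGD, which breaks prostaglandins down, differed by -0.26 with a standard error of 0.12, and CBR1, a carbonyl reductase, by 0.38 with 0.18. The second synthase, HPGDS, and the receptor PTGDR were not tested because they failed the filter on dim probes.

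Of 6 other genes tested of the klotho, FGF and mineral pathway, limma called 0 and 0 had an unadjusted p under 0.05; 2 had a difference above 0. ADAM10, a protease that sheds klotho from the membrane, differed by 0.08 with a standard error of 0.16, the phosphate carrier SLC20A1 by 0.19 with 0.20 and the calcium channel TRPV5 by -0.27 with 0.16. FGFR1 and the vitamin D enzymes CYP27B1 and CYP24A1 were not tested, since no probe of theirs passed the filter. Of 13 other genes tested of GABA transport and turnover, limma called 0 and 1 had an unadjusted p under 0.05; 9 had a difference above 0. SLC6A12, the betaine and GABA transporter of the same family as SLC6A13, differed by -0.26 with a standard error of 0.12, and GAD1, which makes GABA, by 0.26 with 0.21.

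**Figure D5:**
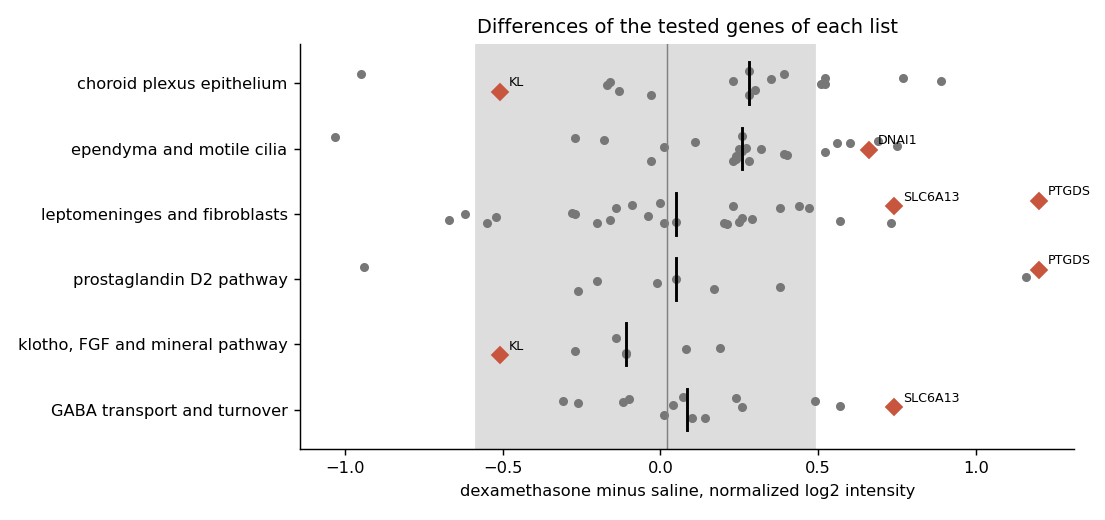
Dexamethasone minus saline (normalized log2 intensity) for the tested genes of 6 lists, members as red diamonds, other genes as grey points and list medians as black bars; the grey band spans percentiles 5 to 95 of all 10794 genes (-0.58 to 0.49). PTGDS, SLC6A13 and DNAI1 lie right of the band and KL inside it.

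The other cells of the forebrain were present by their markers. Of the neuron list, 11 of 16 genes with a probe were tested, 7 with a difference above 0 and a median of 0.12, and the axonal growth protein STMN2 read 16.65 to 16.98 in all 8 samples. The medians of the other lists were 0.09 over 10 astrocyte genes, 0.10 over 13 oligodendrocyte genes, 0.22 over 14 endothelial and pericyte genes and -0.38 over 8 blood cell genes, with 0 called by limma in each and 2, 6, 1 and 4 at an unadjusted p under 0.05. Between 39.1% and 59.7% of probes were well above background in the saline samples and between 47.7% and 64.3% in the dexamethasone samples, with the Cy5 samples above the Cy3 samples.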

How the data were processed

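Forebrain RNA was read from 4 Agilent 2-colour rabbit arrays (design 020908). The deposited scanner files hold spot intensity per dye, extracted by Agilent's Feature Extraction software (10.7.3.1 in the submitters' processing notes, 11.0.1.1 in the file headers). The authors' deposited series table holds a ratio per spot. Within 0.1%, it is the median minus background intensity divided by a constant per column, 120 to 314, and each column's median is 1, so scale, centring and direction are known.

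Mean signals were corrected for background with normexp (offset 50), and normalized by loess within and Aquantile between arrays, which gave a log2 value for each channel. Some spots with a very high local background (signal minus background down to -117651.4 in saline 3) stood in the outlier-flagged set. With all spots in the fit, the normexp background mean was -535.6 in that sample, against 21.3 without flagged spots. After this was seen, local backgrounds flagged as outliers were replaced by the median background of the channel. This concerned 125 to 1926 spots per sample, controls not counted. The parameters of normexp were fitted on spots with no outlier flag. Outlier spots, 932 to 3022 per saline sample and 197 to 509 per dexamethasone sample, were left out. The saline arrays were thus the poorer ones in spot quality.

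Of 43603 probes, 22273 got a symbol from the array or RefSeq. Kept probes were well above background in 4 or more samples. A gene was read by its kept probe of highest mean and needed 3 values per group. The number of arrays limits the precision. The comparison used limma 3.58.1 in R 4.3.3, with dye as covariate, array as random block (correlation 0.259) and Benjamini-Hochberg adjustment over 10794 genes. On simulated data of this comparison (9789 genes), 71% of changes of 1 log2 unit and 95% of changes of 2 were called, and 0.136% of unchanged genes.

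Members and lists were chosen with earlier results of these data known. Named genes were the members, genes fixed by name where measured, the 3 genes of each of 6 lists with the smallest p and the 3 most like each member. CAPS, CRABP2, VWA3A, STMN2, TMEM72, PRLR, SOSTDC1, IGFBP6, EFEMP1, NEFL and GRIA2 were named after their values were seen. Not every gene under the rule is printed. Alternatives covered background, normalization, filters, probe rule, blocks, dye, the deposited table, and each sample or array left out. Promoter motifs were not analysed here.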

Additional observations from a re-analysis of the deposited data

Results flagged for a closer look

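In 5 of 87 groups of 4 samples examined among the named genes, 1 sample stood apart from the other 3 by more than Dixon's 95% critical value for the share of the group's range. Chance alone flags about 1 in 20 groups, and 5.75% were flagged here. On the KITLG probe, saline 1 read 7.02, with the next sample at 7.99. RARRES1 was also low in saline 1, at 7.54 against 8.41 for the next. DNAI3 was high in dexamethasone 4, at 9.63 against 8.96. THNSL1 was high in dexamethasone 3, at 8.06 against 7.49. HMGXB3 was low in dexamethasone 1, at 9.14 against 9.55. RARRES1, THNSL1 and HMGXB3 were named for their likeness to PTGDS, SLC6A13 and KL. PTGDS itself was not among the 5, although its saline 1 value of 13.26 lay far below the next saline sample at 15.41.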

How the results depend on the processing

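The differences of PTGDS, SLC6A13, DNAI1 and KL kept their direction under every alternative that gave a value, at 0.52 to 1.69, 0.49 to 0.96, 0.18 to 0.97 and -0.86 to -0.28. With the filter at 8 of 8 samples SLC6A13 gave no value. Feature Extraction's processed signals moved the median of all genes to -0.31 and the deposited series table moved it to 0.14, so values there are read against that shift. On processed signals KL was -0.86 and DNAI1 0.18, which are -0.55 and 0.49 relative to the median. Medians were -0.04 for the choroid plexus list, -0.27 for the prostaglandin list, -0.61 for the klotho list and -0.2 for the GABA list, or 0.27, 0.04, -0.3 and 0.11 relative to it. GAD1 was -0.06, IGFBP2 -0.11, OTX2 -0.23 and ADAM10 -0.32 there, all turned in sign. In the deposited table the GABA list had a median of 0.25, COL3A1 was 0.01 and PTGS1 0. With loess and the 75th percentile the klotho list had -0.21 and ADAM10 -0.11. The causes were not tested.

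The 7 calls became 22 without the array block, 17 without the dye term, 3 with no filter on dim probes and 12 on processed signals. Higher against lower calls were 4 to 3, but 0 to 10 with the filter at 8 of 8 samples, 2 to 6 in the deposited table and 2 to 5 with normexp fitted on all spots. Leaving out 1 sample gave 1 to 12 calls, klotho list medians of -0.2 to -0.03, and differences of -0.02 to 0.15 for ADAM10, -0.54 to 0.26 for COL3A1, -0.07 to 0.44 for LUM and -0.37 to 0.95 for OTX2. Without the array of saline 1 and 2 there were 2253 calls, among them 5 leptomeningeal, 2 prostaglandin, 1 choroid plexus, 1 klotho pathway and 1 GABA gene; KL was -0.75, IGFBP2 -0.1 and OTX2 -0.29. Without that of saline 3 and 4 there were 160, with 3 cilia genes and 1 choroid plexus gene; the cilia median was 0.57, KL -0.28 and PTGS1 0.06. Without that of dexamethasone 1 and 2 there were 0 by limma (572 at an unadjusted p under 0.05), with ADAM10 at -0.03 and COL1A1 at 0.01. OTX2 was -0.18 without that of dexamethasone 3 and 4. Fits without an array leave a group with 1 array.

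The correlation of PTGDS with SLC6A13 stayed above 0 throughout. It lost its call at 0.3 in the deposited table, at 0.87 not centred (adjusted exact permutation p = 0.0567), at 0.81, 0.84, 0.97 and 0.88 without the arrays of dexamethasone 1 and 2, dexamethasone 3 and 4, saline 1 and 2, and saline 3 and 4, where 48 arrangements allow no adjusted p below 0.125, and without 6 of the 8 single samples (0.77 to 0.96 over all 8). The other pairs were uncalled under every alternative run, and their signs turned. Not centred, KL and DNAI1 had -0.38, PTGDS and KL -0.32, SLC6A13 and KL -0.55 and SLC6A13 and DNAI1 0.51. Leaving out 1 sample gave -0.28 to 0.74 for PTGDS and DNAI1, -0.16 to 0.63 for PTGDS and KL, -0.47 to 0.42 for SLC6A13 and DNAI1 and -0.32 to 0.31 for SLC6A13 and KL. Leaving out an array gave -0.24 and -0.63 for KL and DNAI1 (saline 1 and 2, saline 3 and 4), -0.2 for PTGDS and DNAI1 (saline 1 and 2), -0.2 for PTGDS and KL (saline 3 and 4), 0.43 for SLC6A13 and DNAI1 (dexamethasone 3 and 4), and -0.03 and -0.32 for SLC6A13 and KL (dexamethasone 1 and 2, dexamethasone 3 and 4). The deposited table gave -0.03 for PTGDS and KL, 0.15 for SLC6A13 and DNAI1 and -0.28 for SLC6A13 and KL. SLC6A13 and DNAI1 also had 0.1 centred on group and dye, 0.02 with loess and the 75th percentile, 0.15 over the mean of kept probes, 0.57 on processed signals and 0.05 with quantiles and no loess. SLC6A13 and KL had -0.04 both without background subtraction and with normexp fitted on all spots, the latter chosen after seeing the data.

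Deviations of same-numbered samples of the 2 groups correlated at -0.08, -0.12, 0.04 and 0.08, and those of unlike numbers at -0.19 to 0.18. No pairing by number was seen, though a weak one could be missed here. With the replicate number as a block there were 6 calls, and the differences of the 4 members were the same as without it. Dim probes limit SLC6A13, the KITLG probe and 3 of 4 KL probes.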

Other observations

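Saline 1 had the lowest value of the series for 4 of the 5 genes read by the member probes: 13.26 for PTGDS, 7.47 for SLC6A13, 8.05 for DNAI1 and 7.02 for KITLG. For KL it was the third highest, at 11.99. The share of all genes that are lowest in saline 1 was not counted. PTGDS, SLC6A13 and DNAI1 were also picked with their lower saline means known, so nothing is read from this count. GSN, among the genes most like PTGDS, read 7.19 in saline 1 and 8.46 or more in the other 7 samples. MAPKAP1, the gene closest to PTGDS by correlation, moved over a far smaller range, from 8.36 in saline 1 to 8.72 in dexamethasone 3. Both genes were picked by their correlation with PTGDS over these samples, so a low saline 1 follows from that choice.

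SLC17A6, the vesicular glutamate transporter of thalamic and other subcortical neurons, was named after its values were seen. It read 11.15 and 10.61 in dexamethasone 1 and 4 and 8.96 and 9.18 in dexamethasone 2 and 3, and in saline 8.56, 9.92, 9.69 and 9.93. It was the 6th gene in the order of likeness to the KITLG probe, with r = 0.908 over the 8 samples. For this gene of neurons the dexamethasone samples were thus split in the same way as for TTR. The neuron list on average did not show that split. The mean deviation of its 9 genes with all 8 values was 0.30, -0.19, 0.14 and -0.08 in dexamethasone samples 1 to 4. NEFL and GRIA2 lacked a saline value and are not in that average. NEFL showed the split, with 15.66 and 15.71 in dexamethasone 1 and 4 and 13.69 and 13.91 in dexamethasone 2 and 3. GRIA2 did not, with 12.59 and 12.25 against 11.89 and 12.48.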
